A study of Mus musculus with 20 samples.

Results

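The 8 genes described here encode ribonucleotide reductase and the enzymes that feed the thymidine and deoxycytidine branches of deoxynucleotide (dNTP) supply: *Rrm1*, *Rrm2*, *Rrm2b*, *Tk1*, *Tk2*, *Tyms*, *Dck* and *Dut*. They were picked by gene symbol, as 8 of the 23420 genes counted, and all 8 passed the expression filter of at least 1 CPM (read pairs scaled to library size) in at least 10 mice. Messenger RNA was measured by poly-A selected RNA-seq in whole-heart tissue of 10 male mice on a control diet and 10 male mice on an iron-deficient diet, the latter iron-deficient and anemic (IDA). All 20 were wild type mice, of strain C57BL/6 in the labels and C57BL/6J in the study's methods. They entered the diets at 3 weeks of age, stayed on them for 6 weeks and were 9 weeks old at collection. The comparison asks how the hearts' transcripts for making dNTPs differ when dietary iron is restricted.

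Ribonucleotide reductase converts ribonucleotides to deoxyribonucleotides, the step that commits nucleotides to DNA. *Rrm1* encodes the large catalytic subunit. The small subunit holds a diiron center that generates the tyrosyl radical needed for catalysis, and it comes in 2 forms. *Rrm2* is made in cells that copy their DNA and is degraded at the end of mitosis, whereas *Rrm2b* (p53R2), a p53 target, is present in cells that no longer divide, where it provides dNTPs for DNA repair and for mitochondrial DNA. Most cardiomyocytes of the adult heart do not divide. Around the reductase, *Tyms* (thymidylate synthase) makes dTMP from dUMP, *Dut* (dUTPase) removes dUTP and yields dUMP, *Tk1* and *Tk2* are the cytosolic and mitochondrial thymidine kinases, and *Dck* is the deoxycytidine kinase of the salvage pathway.

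The genes lie on 7 chromosomes of mm10, with positions taken from the gene models that were counted. *Rrm1* spans chr7:102441695-102469771 on the plus strand, with 19 exon blocks and 3997 exonic bases. *Rrm2b* spans chr15:37923953-37961055 on the minus strand and is the longest transcript model of the set, at 4512 exonic bases in 9 blocks. *Rrm2* spans chr12:24708254-24714146 on the plus strand, with 2180 exonic bases in 10 blocks. Exonic length matters below because the diet difference changed with it across all genes. The shortest model was *Tk1*, chr11:117815519-117826014 on the minus strand, with 1369 exonic bases in 7 blocks. It shares 88 exonic bases with *Afmid* on the opposite strand, and reads there cannot be told apart because counting ignored strand. *Tk2* spans chr8:104226691-104248558 on the minus strand (10 blocks, 2400 bases). *Tyms* (chr5:30058200-30073625, minus strand, 7 blocks, 3808 bases) and *Dck* (chr5:88765013-88783277, plus strand, 7 blocks, 3057 bases) lie on the same chromosome. *Dut* spans chr2:125247248-125259049 on the plus strand, with 2512 bases in 7 blocks. *Rrm2b* also shares 212 exonic bases with the antisense gene *Gm49085* of a later GENCODE annotation, which was not among the genes counted here.

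The promoters of *Rrm1* and *Rrm2* are shown because their subunits form 1 enzyme, and those of *Tyms*, *Tk2* and *Dck* because they were called different between the diets. The window of *Dut*, also called different, lies inside its counted gene model and is not shown. Each is the 250 bases before the RefSeq transcription start in GRCm38.p6, written 5′ to 3′ on the strand of the gene: *Rrm1* chr7:102441445-102441694 (plus), *Rrm2* chr12:24708004-24708253 (plus), *Tyms* chr5:30073626-30073875 (minus), *Tk2* chr8:104248559-104248808 (minus) and *Dck* chr5:88764763-88765012 (plus). Capitals mark 4 kinds of motif searched on both strands: the CCAAT box CCAAT, the E2F-type letters TTCCCGC or TTTGGCG, the core ACGTG or GCGTG of the hypoxia response element, and the GC box GGGCGG.
Rrm1: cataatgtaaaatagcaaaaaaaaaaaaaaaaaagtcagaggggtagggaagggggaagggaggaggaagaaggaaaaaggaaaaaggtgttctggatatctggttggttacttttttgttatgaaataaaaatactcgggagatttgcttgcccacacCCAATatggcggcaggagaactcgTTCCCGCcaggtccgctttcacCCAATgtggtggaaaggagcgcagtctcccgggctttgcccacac
Rrm2: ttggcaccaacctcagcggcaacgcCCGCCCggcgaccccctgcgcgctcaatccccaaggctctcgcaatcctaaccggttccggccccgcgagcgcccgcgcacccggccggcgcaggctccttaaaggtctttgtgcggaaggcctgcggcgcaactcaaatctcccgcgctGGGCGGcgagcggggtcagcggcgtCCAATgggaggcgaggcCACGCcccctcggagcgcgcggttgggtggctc
Tyms: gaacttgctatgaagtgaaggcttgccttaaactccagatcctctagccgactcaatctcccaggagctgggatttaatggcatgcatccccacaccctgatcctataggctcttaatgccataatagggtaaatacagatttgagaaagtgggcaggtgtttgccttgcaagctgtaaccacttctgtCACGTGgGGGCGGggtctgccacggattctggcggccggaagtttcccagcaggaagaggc
Tk2: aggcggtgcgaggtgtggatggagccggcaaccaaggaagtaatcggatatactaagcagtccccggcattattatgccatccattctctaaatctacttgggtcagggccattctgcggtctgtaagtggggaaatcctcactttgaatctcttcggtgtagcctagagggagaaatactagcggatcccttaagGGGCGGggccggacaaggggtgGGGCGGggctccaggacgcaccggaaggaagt
Dck: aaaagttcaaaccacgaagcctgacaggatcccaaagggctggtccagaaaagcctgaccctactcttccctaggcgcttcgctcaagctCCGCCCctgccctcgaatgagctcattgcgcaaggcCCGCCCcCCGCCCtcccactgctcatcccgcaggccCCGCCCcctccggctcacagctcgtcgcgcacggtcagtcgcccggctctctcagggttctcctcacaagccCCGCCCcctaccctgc

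A RefSeq window was found for 7 of the 8 genes, the exception being *Rrm2b*. *Rrm1* held 2 CCAAT boxes and 1 E2F-type match, and *Rrm2* held 1 CCAAT box, 2 GC boxes and 1 hypoxia core. CCAAT boxes were in 2 of the 7 windows, against 33.8% of 32851 windows genome-wide, and the E2F-type letters in 1, against 4.94%. The hypoxia core was in 3 of the 7 (*Dut*, *Tyms* and *Rrm2*), against 38.6%. The GC box was the commonest, in 6 of the 7 windows (all but *Rrm1*), against 32.7%, and *Dck* held it 5 times. In *Tyms* the core lies in the palindrome CACGTG, so that it matches on both strands.

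Total counts lay between 6682177 and 8960688 read pairs per mouse, from 6797180 to 8960688 in control and from 6682177 to 7833916 in IDA hearts. The 8 genes differed widely in the counts behind them, from 22 read pairs for *Tyms* in the lowest mouse to 905 for *Rrm2b* in the highest. Transcripts of long genes were lower in IDA hearts across the whole transcriptome. The median log2 fold change fell from 0.34 in the shortest decile of tested genes to -0.53 in the longest decile. The slope of a mouse's log2 CPM on gene length was taken relative to the mean of all mice, which sets its 0 point. It lay between 0.0205 and 0.199 per doubling in control mice and between -0.254 and -0.0252 in IDA mice. The opposite signs follow from that centring, and the diets did not overlap. For this reason the differences of the 8 genes, and those of the other genes where they change, are given as measured and with a correction that removes the length trend from every mouse.

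Of the 8 genes, 6 were called different between the diets (edgeR's quasi-likelihood test, Benjamini-Hochberg adjusted p below 0.05 over 13590 genes), against 67.5% of all tested genes. *Tyms*, *Tk2* and *Dut* rose, where 35.0% of tested genes were called higher. *Rrm2b*, *Dck* and *Rrm1* fell, where 32.5% were called lower. *Rrm2* and *Tk1* did not pass the test. The share of the 8 genes called was thus near that of all genes, their median log2 fold change was 0.03 against 0.02 for all tested genes, and their median absolute log2 fold change was 0.30 against 0.27. In none of the 8 were the diets fully separated, against 11.3% of tested genes. Fewer cells of a type and less RNA per cell cannot be told apart in whole-heart RNA.

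**Figure D1:**
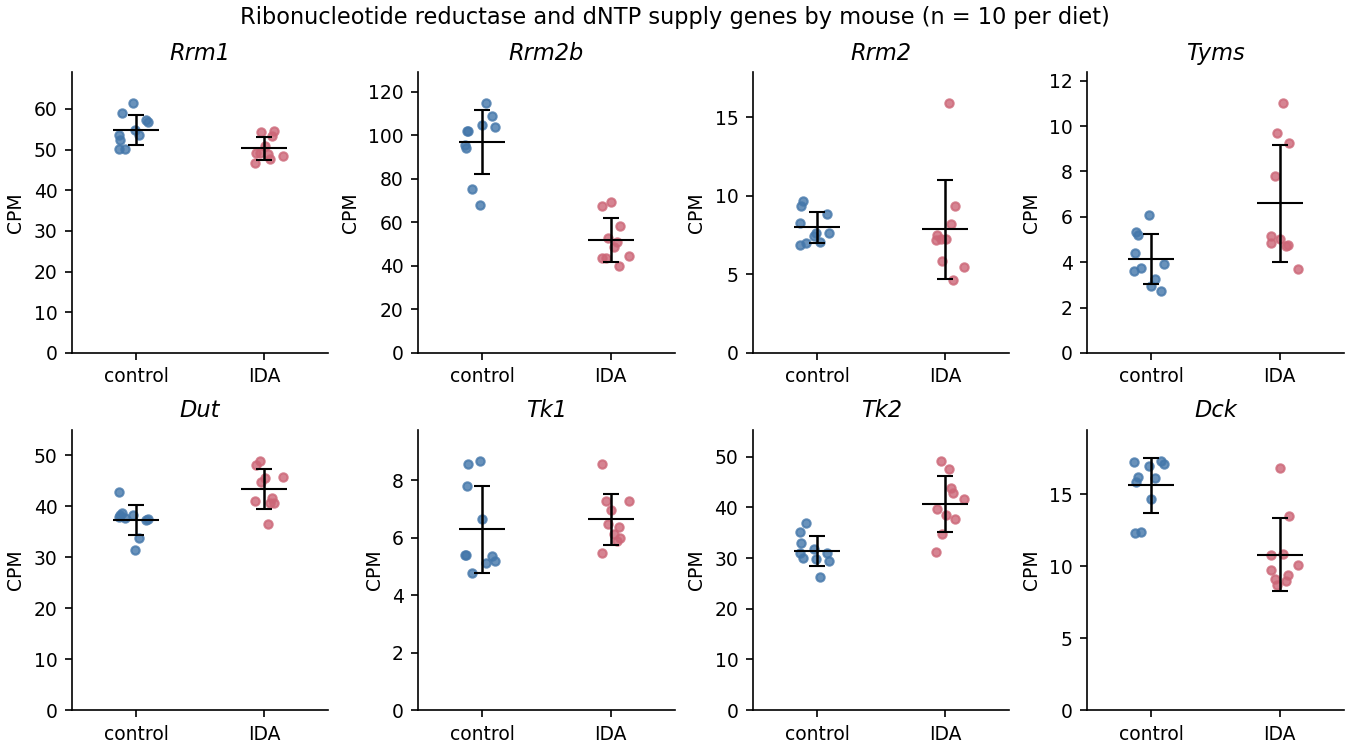
Expression of the 8 genes in CPM (vertical axes, each starting at 0) by mouse, with 10 control mice and 10 IDA mice per panel. Points are mice, the long bar is the mean and the error bar the SD. The *Rrm2b* panel shows 9 of 10 IDA mice below the lowest control mouse, and the *Rrm2* panel 1 IDA mouse at 15.9 CPM, above the others.

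Per exonic base, *Rrm2b* was the most abundant of the 8 transcripts in control hearts, at 21.5 ± 3.24 RPKM (CPM per kilobase of exon, SD, n = 10). *Dut* at 14.9 ± 1.19, *Rrm1* at 13.7 ± 0.93 and *Tk2* at 13.1 ± 1.25 RPKM followed. The ranges of these 3 over control mice overlapped with each other and with that of *Rrm2b* (15.1 to 25.4 RPKM). Below them came *Dck* (5.11 ± 0.62), *Tk1* (4.60 ± 1.10) and *Rrm2* (3.66 ± 0.46), again with overlapping ranges, and *Tyms* was lowest at 1.08 ± 0.29 RPKM. In IDA hearts *Rrm2b* was at 11.5 ± 2.26 RPKM, behind *Dut* (17.3 ± 1.54), *Tk2* (17.0 ± 2.32) and *Rrm1* (12.6 ± 0.71), and its range overlapped those of all 3. The low group was *Tk1* (4.84 ± 0.66), *Rrm2* (3.61 ± 1.44), *Dck* (3.53 ± 0.83) and *Tyms* (1.73 ± 0.68) RPKM. Within it the ranges of neighbouring genes overlapped.

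*Rrm2b*, the small subunit of non-dividing cells, showed the largest difference of the set in the fit of all mice without a correction or covariate. With the length correction *Tyms* was farther from 0 (0.84 against -0.66), as it was with length and GC (0.93 against -0.43) and a library size covariate (1.02 against -0.83). The same held in the higher-numbered libraries alone, described below (0.98 against -0.83). For *Rrm2b*, control mice had 68.0 CPM at the lowest, 102 at the median and 114.5 at the highest, and IDA mice 39.7, 49.8 and 69.1. The diets overlapped only where IDA mouse 2, at 69.1 CPM, lay above control mouse 6, at 68.0 CPM, and all 10 IDA mice were below the control mean. The mean went from 96.8 ± 14.6 to 51.8 ± 10.2 CPM (SD, n = 10 each), a log2 fold change of -0.90 (standard error, SE, 0.10, edgeR adjusted p = 3.65e-07), or 1.87-fold lower. Among all tested genes, 4.11% had a more negative log2 fold change. Among the 1357 genes of its length decile, whose median was -0.20, *Rrm2b* was number 62 from the most negative. The correction for gene length gave a log2 fold change of -0.66 (SE 0.08, adjusted p = 1.58e-06), and the correction for length and GC content together gave -0.43 (SE 0.06, adjusted p = 9.79e-06).

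*Rrm2b* also moved with the length slope among mice on the same diet. In control mice its log2 CPM correlated with the slope at r = 0.90 (permutation p = 0.0002, adjusted p = 0.0096 over 48 relations, and rho = 0.89, permutation p = 0.00111, adjusted p = 0.0266), and r was 0.80 without the 2 mice farthest from the median slope. In IDA mice r was 0.73 (permutation p = 0.0166, adjusted p = 0.133, and rho = 0.68, permutation p = 0.034, adjusted p = 0.265), and 0.63 without the 2 farthest mice. Control mice 6 and 2, which had the lowest *Rrm2b* of the control group at 68.0 and 75.1 CPM, also had its lowest slopes, 0.0353 and 0.0205. The slope separates the diets, and entering it as a covariate left *Rrm2b* at -0.12 on the log2 scale (SE 0.14, adjusted p = 1.00), and 4 genes of all those tested were called higher and 1 lower. That setting was chosen after the slopes were seen, and diet and slope can hardly be told apart in it.

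The large subunit *Rrm1* was nearly level. Control mice had 50.1 CPM at the lowest, 54.2 at the median and 61.3 at the highest, and IDA mice 46.7, 49.2 and 54.6. All 10 IDA mice were below the control mean and 6 were below the lowest control mouse. The mean was 54.9 ± 3.70 CPM in control and 50.3 ± 2.84 CPM in IDA hearts, with a log2 fold change of -0.12 (SE 0.05, edgeR adjusted p = 0.0183). The direction depended on the correction. The length correction gave 0.06 (adjusted p = 0.231) and the length and GC correction 0.22 (adjusted p = 0.000959), so that *Rrm1* cannot be called lower or higher independently of the trend. By the stricter rule of an unadjusted p below 0.01 in both edgeR and DESeq2, *Rrm1* was not called, whereas the other 5 were, against 59.8% of tested genes.

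*Rrm2*, the small subunit of dividing cells, gave no difference beyond the spread between mice. Control mice lay at 6.87 (lowest), 7.64 (median) and 9.68 (highest) CPM, and IDA mice at 4.62, 7.26 and 15.9 CPM. The IDA range enclosed the control range on both sides, with 3 IDA mice above and 7 below the control mean. The means were 7.98 ± 1.01 and 7.86 ± 3.13 CPM, which differed by -0.02 on the log2 scale (SE 0.16, edgeR adjusted p = 0.934), with a 95% interval from -0.36 to 0.32. IDA mouse 4 supplied the high value, and leaving it out gave -0.19 (adjusted p = 0.143). A mean of 61.6 read pairs in control and 57.5 in IDA hearts lay behind these values.

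Ratios within a mouse compared the subunits directly, with read pairs per exonic base. *Rrm2b* to *Rrm1* ran from 0.982 to 1.89 (median 1.65) in control mice and from 0.659 to 1.28 (median 0.871) in IDA mice. The difference in mean log2 ratio was -0.78 (two-sided permutation test with 100000 resamples, p = 7e-05, adjusted p = 0.00014 over 4 ratios), with all 10 IDA mice below the control mean. The small subunit transcript of non-dividing cells thus went from above to below the large subunit transcript at the median. *Rrm2* to *Rrm2b* ran from 0.129 to 0.228 (median 0.175) in control and from 0.219 to 0.676 (median 0.295) in IDA mice. That ratio was higher by 0.82 on the log2 scale (p = 4e-05, adjusted p = 0.00014, permutation test), again in all 10 IDA mice. *Rrm2* to *Rrm1* had medians of 0.258 and 0.278 and did not pass the test (log2 difference 0.03, permutation p = 0.866). Without IDA mouse 4 its log2 difference was -0.09. *Rrm2b* made up 85.3 ± 2.09% of small subunit RPKM in control hearts (81.6 to 88.7%) and 76.3 ± 6.76% in IDA hearts (59.7 to 82.2%), and remained the major form in every mouse. With the length correction the log2 difference was -0.72 for *Rrm2b* to *Rrm1* (permutation adjusted p = 0.00028), 0.49 for *Rrm2* to *Rrm2b* (adjusted p = 0.00332) and -0.24 for *Rrm2* to *Rrm1* (adjusted p = 0.186).

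**Figure D2:**
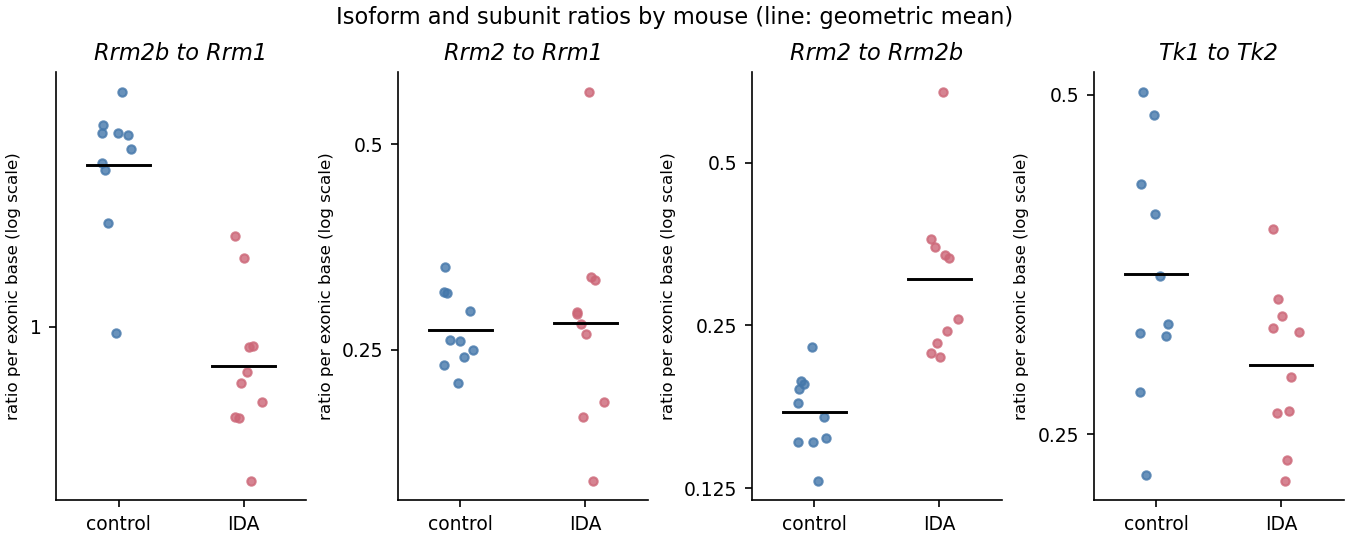
Ratios per exonic base in each mouse (vertical axes, log scale), for 10 control and 10 IDA mice, with the line at the geometric mean. *Rrm2b* to *Rrm1* is lower and *Rrm2* to *Rrm2b* higher in IDA mice, with medians of 1.65 and 0.871 and of 0.175 and 0.295.

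*Tyms* had the largest rise among the 8 transcripts. It had 2.74 CPM at the lowest, 3.82 at the median and 6.07 at the highest in control mice, and 3.70, 5.08 and 11.0 CPM in IDA mice. IDA mice 1, 3, 4 and 5 were above every control mouse, 9 of 10 were above the control mean, and the other IDA mice lay within the control range. The mean of the leukocyte markers was 3.92 to 4.54 on the log2 CPM scale in these 4 mice and 3.95 in IDA mouse 2, against 3.37 to 3.68 in IDA mice 6 to 10 and 3.18 to 3.73 in control mice, and its part in the *Tyms* difference was not tested. The mean went from 4.12 ± 1.10 to 6.59 ± 2.59 CPM, a log2 fold change of 0.69 (SE 0.20, edgeR adjusted p = 0.00454), or 1.61-fold. The length trend ran against it: the median of its length decile was -0.12, *Tyms* was number 1347 of 1358 genes counted from the most negative, and the length correction gave 0.84 (adjusted p = 0.00114). The call was lost with the mean of erythroid markers as a covariate (0.49, SE 0.34, adjusted p = 0.230) and in the lower-numbered libraries alone (0.49, adjusted p = 0.167). The higher-numbered ones gave 0.98 (edgeR adjusted p = 0.00646). The erythroid mean itself separated the diets, at most 4.16 in control mice and at least 4.37 in IDA mice on the log2 CPM scale. The fit with it can therefore only partly tell diet from the erythroid mean. The deposited columns carry library numbers, in a lower run of 5 control and 7 IDA mice and a higher run of 5 control and 3 IDA mice. Only 31.9 read pairs on average in control and 48.9 in IDA hearts support this gene.

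*Dut*, which makes the substrate of thymidylate synthase, rose by less. Control mice lay at 31.5 (lowest), 37.8 (median) and 42.7 (highest) CPM, and IDA mice at 36.6, 43.2 and 49.0 CPM. The ranges overlapped, with 5 IDA mice above every control mouse and 9 above the control mean. Means were 37.4 ± 3.00 and 43.4 ± 3.86 CPM, and the diet difference was 0.22 on the log2 scale (SE 0.06, edgeR adjusted p = 0.00215). It was 0.19 (adjusted p = 0.00706) after the length correction. *Dut* thus rose 1.16-fold with a small spread between mice.

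Of the thymidine kinases, the mitochondrial enzyme *Tk2* rose and the cytosolic, S phase enzyme *Tk1* did not pass the test. *Tk2* lay at 26.2, 31.0 and 36.9 CPM (lowest, median, highest) in control mice and at 31.2, 40.6 and 49.2 CPM in IDA mice, with 8 IDA mice above every control mouse. Its mean went from 31.4 ± 3.01 to 40.7 ± 5.56 CPM, a log2 fold change of 0.37 (SE 0.07, edgeR adjusted p = 0.000135), and was 0.33 (adjusted p = 0.000482) after the length correction. *Tk2* moved against the length slope, with r = -0.86 in IDA mice (permutation p = 0.00134, adjusted p = 0.0322, rho = -0.90, permutation p = 0.00091, adjusted p = 0.0266) and r = -0.71 without the 2 mice farthest from the median. In control mice r was -0.78 (permutation p = 0.00564, adjusted p = 0.0677, rho = -0.75, permutation p = 0.0173, adjusted p = 0.166), and -0.77 without the 2 farthest mice. Entering the slope as a covariate left *Tk2* at -0.16 (SE 0.11, adjusted p = 0.985), and the call was lost in the higher-numbered libraries alone (0.35, adjusted p = 0.0519).

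*Tk1* had 4.78, 5.40 and 8.67 CPM (lowest, median, highest) in control mice and 5.45, 6.41 and 8.55 CPM in IDA mice. The IDA range lay inside the control range, and the difference was 0.07 on the log2 scale (SE 0.12, edgeR adjusted p = 0.639, 95% interval -0.19 to 0.33). The sign turned with the length correction (-0.16, adjusted p = 0.260). The *Tk1* to *Tk2* ratio per exonic base had medians of 0.329 in control and 0.295 in IDA mice and did not pass the test (log2 difference -0.27, permutation p = 0.0623, adjusted p = 0.0831), although 9 of 10 IDA mice were below the control mean. With the length correction the log2 difference was -0.45 (permutation adjusted p = 0.00888), and it also passed without control mouse 2 (-0.33) or without IDA mouse 10 (-0.31).

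*Dck*, the salvage kinase for deoxycytidine, fell. Control mice had 12.3, 16.2 and 17.3 CPM (lowest, median, highest) and IDA mice 8.70, 9.90 and 16.8 CPM. The values of 8 IDA mice were below every control mouse, while the highest IDA mouse was within the upper part of the control range. The mean went from 15.6 ± 1.91 to 10.8 ± 2.54 CPM, a log2 fold change of -0.53 (SE 0.11, edgeR adjusted p = 0.000212), or 1.45-fold lower. The length decile of *Dck* had a median of 0.00 and *Dck* was number 120 of 1358 from the most negative. The erythroid covariate gave -0.80 (SE 0.18, adjusted p = 0.0011), and the higher-numbered libraries alone did not pass (-0.40, adjusted p = 0.17). The length correction gave -0.47 (adjusted p = 0.000567) and the length and GC correction -0.31 (adjusted p = 0.00895).

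**Figure D3:**
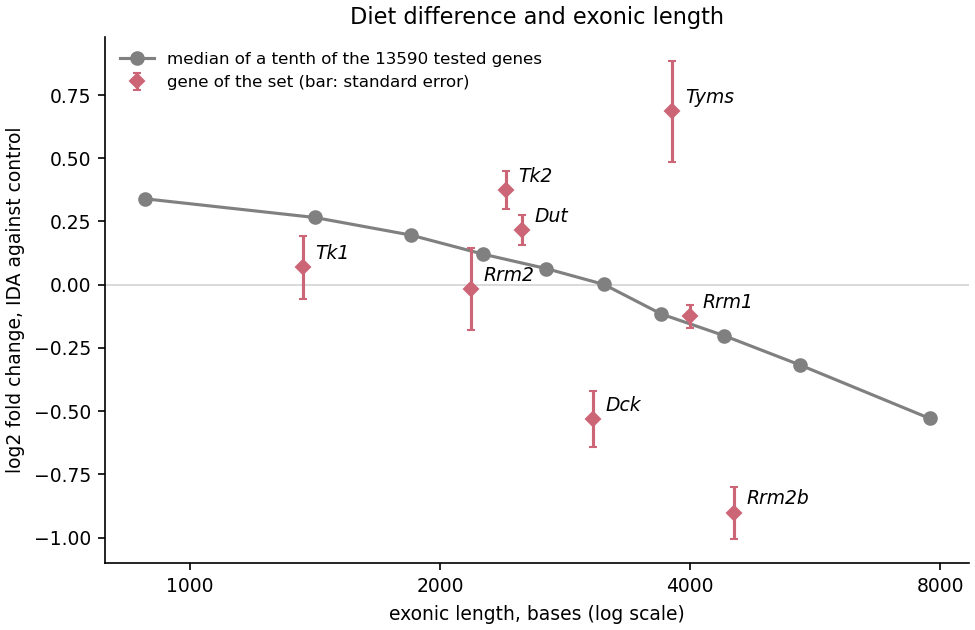
Log2 fold change of IDA against control (vertical axis) against exonic length in bases (horizontal axis, log scale). Grey points are medians of deciles of the 13590 tested genes, running from 0.34 to -0.53, and diamonds are the 8 genes with their standard errors. *Rrm1* lies on the trend, *Rrm2b* and *Dck* below it and *Tyms* above it.

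After the length correction, 5 of the 8 genes were called, against 55.0% of tested genes. *Tyms*, *Tk2* and *Dut* were higher (31.5% of tested genes were) and *Rrm2b* and *Dck* lower (23.5%). After the length and GC correction 6 were called, against 46.8%, with *Rrm1* added on the higher side and *Rrm2b* and *Dck* still lower. In these 3 fits *Rrm2b* and *Dck* had the lowest log2 fold changes and *Tyms* the highest, while the order of the other 5 differed. With the slope entered as a covariate none of the 8 was called.

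**Figure D4:**
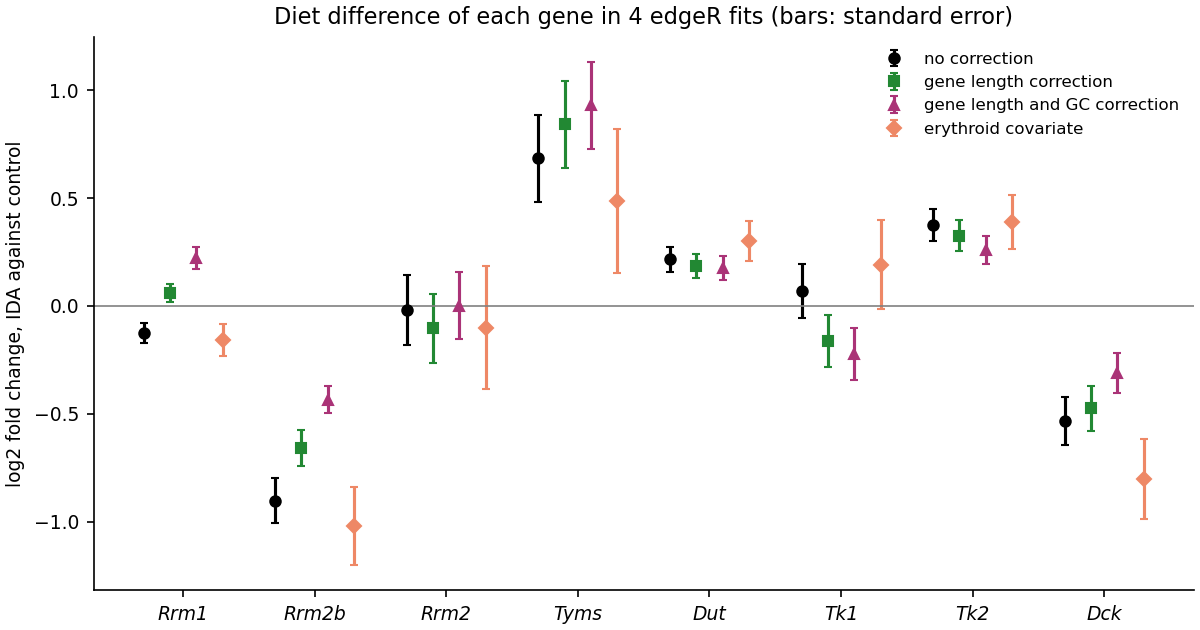
Log2 fold change of each of the 8 genes (vertical axis) in edgeR fits with no correction, with the gene length correction, with the length and GC correction and with the erythroid covariate, bars showing the standard error. *Rrm1* changes sign between fits (-0.12, 0.06 and 0.22), and *Rrm2b* lies between -1.02 and -0.43 in the 4 fits.

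The other enzymes of dNTP supply were taken from a wider list of 28 genes, of which 20 are not among the 8 above. The counts of each list below stand against 35.0% of all tested genes called higher and 32.5% called lower, or 31.5% and 23.5% after the length correction, and against a median log2 fold change of 0.02. With length and GC, 3643 of the 13590 tested genes were called higher and 2712 lower. The library size covariate called 3959 of all tested genes higher and 3961 lower, and the erythroid covariate 3589 and 3543. The lower-numbered libraries alone gave 4108 and 3900, and the higher-numbered ones 2635 and 3271. Of the 20, 13 rose, 3 fell and 4 did not pass the test, with a median of 0.25. After the length correction 8 were higher and 2 lower, with a median of 0.10, and after the length and GC correction 6 were higher and 3 lower. All 5 nucleoside diphosphate kinases of the list, which make the final triphosphates, were among those that rose, led by *Nme6* (30.3 ± 1.82 to 43.1 ± 5.83 CPM, log2 fold change 0.51, adjusted p = 1.36e-06) and *Nme3* (22.9 ± 2.57 to 32.1 ± 3.44 CPM, 0.49, adjusted p = 3.75e-06). The rise of this family depended on the correction. With the length correction *Nme6* was at 0.22, *Nme1* at 0.22 and *Nme3* at 0.14, all still called, while *Nme4* (0.06, adjusted p = 0.609) and *Nme2* (-0.09, adjusted p = 0.0933) were not. With length and GC *Nme1* alone was called higher (0.22) and *Nme2* was called lower (-0.26, adjusted p = 0.00034). *Dguok*, the mitochondrial deoxyguanosine kinase that parallels *Tk2*, rose by 0.31 on the log2 scale (adjusted p = 0.000105) but was at 0.04 (adjusted p = 0.45) after the length correction. With length and GC it was again called higher (0.13, adjusted p = 0.0280). The 3 that fell were *Slc25a36*, a mitochondrial pyrimidine nucleotide carrier (63.1 ± 10.4 to 34.6 ± 8.79 CPM, -0.86, adjusted p = 3.16e-06, and -0.81 after the length correction), *Cmpk2*, the mitochondrial UMP-CMP kinase (42.2 ± 5.20 to 26.7 ± 4.68 CPM, -0.66, adjusted p = 2.09e-06, and -0.58), and *Dctd*, the dCMP deaminase (-0.32, adjusted p = 0.0459, and -0.30, adjusted p = 0.0647, after the correction). *Nme1*, *Nme2*, *Nme4* and *Dguok* were chosen after their values were seen. With the 8 genes included, the list of 28 had 16 higher and 6 lower, with a median of 0.21.

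Of the 18 genes that break down deoxynucleotides or their precursors, 17 were tested, 13 rose (against 35.0% of tested genes) and 3 fell (32.5%), with a median of 0.39. After the length correction 9 were higher (31.5%) and 1 lower (23.5%), and after length and GC 5 were higher and 2 lower. *Upp1*, uridine phosphorylase, went from 10.1 ± 1.65 to 19.6 ± 5.47 CPM (log2 fold change 0.97, adjusted p = 2.43e-06, and 0.76 with the length correction). *Cda*, cytidine deaminase, had 1.62 to 3.84 CPM in control mice and 1.87 to 11.0 CPM in IDA mice, a log2 fold change of 0.80 (adjusted p = 0.00968) that did not pass with the length correction (0.48, adjusted p = 0.12). *Nt5c*, a nucleotidase for deoxynucleotides, rose by 0.60 (adjusted p = 1.12e-05), and was at 0.26 (adjusted p = 0.00932) with the correction. With length and GC it did not pass (0.05, adjusted p = 0.619). *Samhd1*, which hydrolyses dNTPs in cells that do not divide, fell by 0.29 on the log2 scale from 105 ± 9.66 to 86.1 ± 4.57 CPM (adjusted p = 1.67e-05), and was at -0.10 (adjusted p = 0.065) with the length correction. *Nt5e*, the ecto-nucleotidase that removes phosphate from extracellular nucleotides, also fell (-0.37, adjusted p = 0.0457) and did not pass with the correction (-0.24, adjusted p = 0.205).

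**Figure D5:**
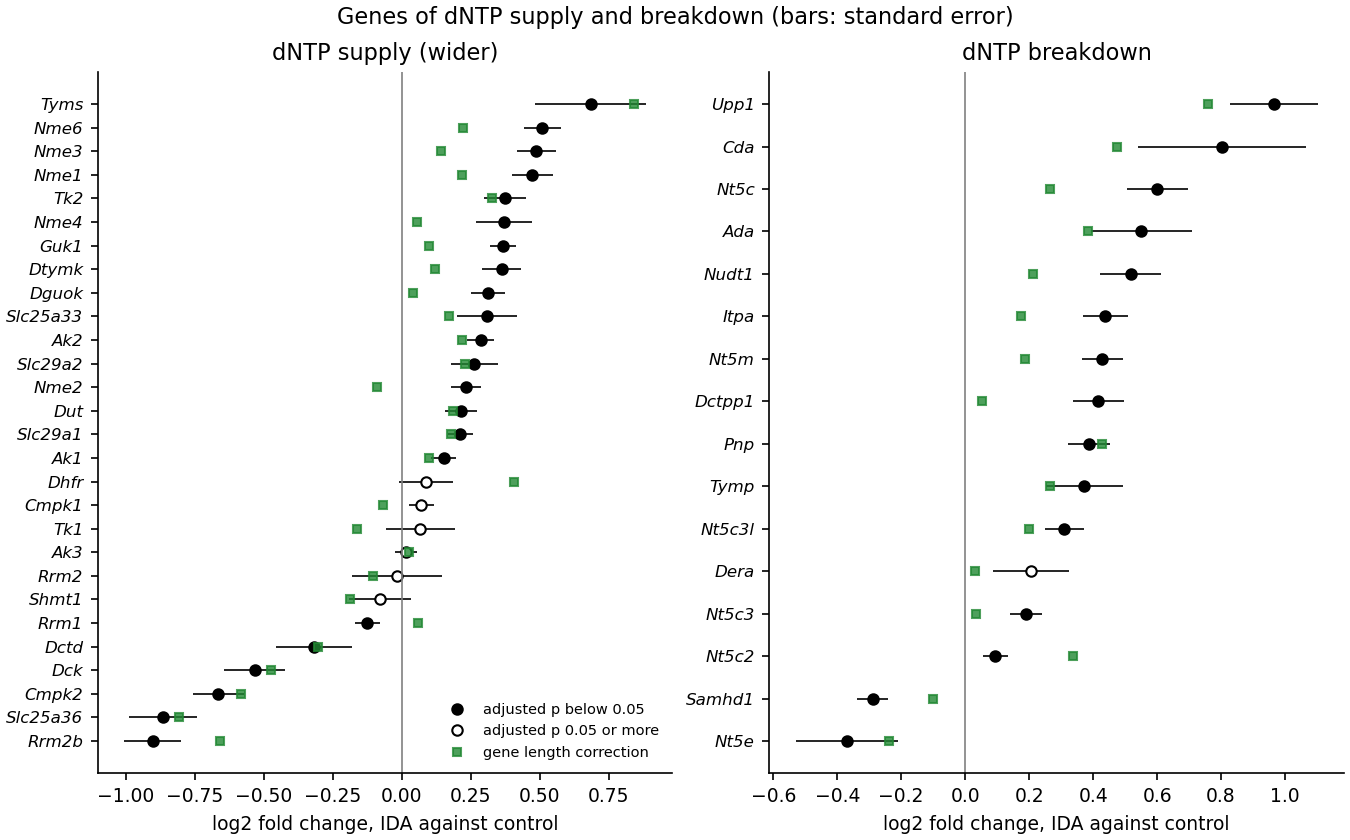
Log2 fold change of IDA against control (horizontal axes) for the tested genes of the wider dNTP supply list (left, 28 genes) and of the breakdown list (right, 16 of its 17 genes). Filled circles passed an adjusted p below 0.05, open circles did not, bars are standard errors and green squares are the values with the length correction. Most genes of both lists lie above 0, with *Rrm2b* the lowest and *Upp1* the highest.

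The reductants that return electrons to ribonucleotide reductase belong to the thioredoxin and glutaredoxin systems, and the list also holds *Txnip*, an inhibitor of thioredoxin. Of 10 tested, 7 rose (against 35.0% of tested genes) and 1 fell (32.5%), with a median of 0.20. With the length correction 4 were higher (31.5%) and none lower (23.5%), with a median of 0.02, and after length and GC 3 were higher and 2 lower. *Txnip* (0.18) is among the higher genes of each of these counts. *Glrx3* (0.38), *Txnrd2*, the mitochondrial thioredoxin reductase (0.36), and *Glrx5*, a mitochondrial glutaredoxin of iron-sulfur cluster assembly (0.30), had the largest log2 fold changes. With the length correction they were at 0.20, 0.23 and 0.00, and *Glrx5* no longer passed. With length and GC *Glrx3* was still called higher (0.31), *Txnrd2* did not pass (0.09, adjusted p = 0.114) and *Glrx5* was called lower (-0.09, adjusted p = 0.0351). *Txnrd1*, the cytosolic thioredoxin reductase, was the gene that fell (-0.15, adjusted p = 0.00985) and was at 0.03 after the correction.

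Of 15 tested genes of mitochondrial DNA replication, the process that *Rrm2b*, *Tk2* and *Dguok* supply, 6 rose (against 35.0% of tested genes) and 4 fell (32.5%), shares near those of all genes, with a median of 0.09. After the length correction 5 were higher and 3 lower, and after length and GC 6 were higher and none lower. The library size covariate and the erythroid covariate each left 3 higher and 3 lower, the lower-numbered libraries alone gave 4 and 2, and the higher-numbered ones 1 and 1. Over all tested genes these fits called, in the same order, 3959, 3589, 4108 and 2635 higher and 3961, 3543, 3900 and 3271 lower. *Polrmt*, the mitochondrial RNA polymerase, rose from 109 ± 7.60 to 131 ± 12.9 CPM (0.27, and 0.42 with the length correction), and *Peo1*, the helicase Twinkle, rose from 115 ± 4.64 to 137 ± 13.5 CPM (0.24, and 0.36). *Polg2*, the accessory subunit of the mitochondrial polymerase, rose by 0.27 but did not pass with the correction (0.08, adjusted p = 0.503). The catalytic subunit *Polg* was at 0.02 (adjusted p = 0.645) and *Tfam*, which packages mitochondrial DNA, at -0.02 (adjusted p = 0.732). Both were given for their roles and were higher after the length correction (0.28 and 0.16). *Dna2* (-0.60), *Lig3* (-0.48) and *Ccdc111* (-0.29) fell, and with the length correction were at -0.41, -0.11 and -0.12, the last with an adjusted p of 0.403. None of these 3 passed with length and GC.

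Genes of DNA replication were compared because *Rrm2*, *Tk1* and *Tyms* are expressed with them in S phase. Of 39 tested S phase genes, 19 rose (against 35.0% of tested genes) and 3 fell (32.5%), with a median of 0.21. Corrected for length, 13 were higher (31.5%) and 5 lower (23.5%), after length and GC 9 and 1, with the erythroid covariate 8 and 2, and in the lower-numbered libraries alone 6 and 4. In the same order, these last 3 fits called 3643, 3589 and 4108 of all tested genes higher and 2712, 3543 and 3900 lower. Erythroid markers differed between the diets as given below. *E2f2* rose most, from 2.15 ± 0.78 to 12.6 ± 9.66 CPM (log2 fold change 2.53, adjusted p = 5.54e-06, and 2.78 with the length correction). *Gins2* (0.62) and *Mcm5* (0.45), both of the replicative helicase, followed, and with the correction *Mcm5* was at 0.56 while *Gins2* did not pass (0.34, adjusted p = 0.14). The replication genes *Pola1* (-0.52), *Mcm4* (-0.45) and *Pold3* (-0.19) fell, and were at -0.19, -0.31 and -0.14 with the correction. With length and GC *Mcm4* was still called lower (-0.19, adjusted p = 0.0257). *Pola1* (0.01, adjusted p = 0.926) and *Pold3* (-0.10, adjusted p = 0.175) did not pass.

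Of 22 tested mitosis genes, 4 rose and none fell, below the 35.0% and 32.5% of all tested genes, with a median of 0.12. The length correction gave 5 higher, the length and GC correction 7 higher and 1 lower, the library size covariate 6 higher, the erythroid covariate 1 higher and 1 lower, and fits within the lower- or the higher-numbered libraries 2 higher each. Over all tested genes these fits called, in the same order, 4281, 3643, 3959, 3589, 4108 and 2635 higher. They called 3193, 2712, 3961, 3543, 3900 and 3271 lower. *Ube2c* (3.03 ± 0.87 to 8.53 ± 4.82 CPM, 1.48) and *Cdc20* (0.63) led, at 1.19 and 0.47 with the length correction, and *Cdca8* (0.54) did not pass with it (0.35, adjusted p = 0.0639). The proliferation marker *Mki67* was at 0.03 (adjusted p = 0.843) and at 0.64 after the length correction.

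Within diets, *Rrm2* moved with the mean of the mitosis genes in IDA mice (r = 0.86, permutation p = 0.00274, adjusted p = 0.0438, and rho = 0.82, permutation p = 0.00622, adjusted p = 0.0746), with r = 0.61 without the 2 mice farthest from the median. IDA mouse 4 had both the highest *Rrm2* and the highest mitosis mean (2.92 on the log2 CPM scale). In control mice r was 0.37 (permutation p = 0.292, adjusted p = 0.678, and rho = 0.10, permutation p = 0.784). For *Tk1* r was 0.75 in control mice (permutation p = 0.0116, adjusted p = 0.111, and rho = 0.82, permutation p = 0.00557, adjusted p = 0.0746), and 0.71 without the 2 farthest mice, against 0.07 in IDA mice (permutation p = 0.839), where it was 0.66 without the 2 farthest mice. For *Tyms* r was 0.67 in IDA mice (permutation p = 0.0279, adjusted p = 0.191) and 0.26 without the 2 farthest mice. The difference between diets in these relations was not tested. None of the 16 relations of the 8 genes with the erythroid mean had an unadjusted permutation p below 0.05 for r, although for *Rrm2* in control mice rho was -0.66 (permutation p = 0.0441, adjusted p = 0.265). Without the 2 farthest IDA mice, r with the erythroid mean was 0.73 for *Rrm2b*, 0.74 for *Dck* and -0.65 for *Tk1*, against 0.27, 0.53 and -0.42 with all 10.

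*Rrm2b* is a p53 target, and 24 of 25 listed p53 target genes were tested. Of these, 7 rose and 6 fell, shares below the 35.0% and 32.5% of all tested genes, with a median of 0.01. The length correction left 5 higher and 5 lower, and after length and GC 4 and 3. *Phlda3* (28.3 ± 4.48 to 46.1 ± 8.96 CPM, 0.71, and 0.49 with the length correction) and *Plk3* (0.56, and 0.50) rose. *Gdf15* had 1.80 to 4.93 CPM in control mice and 2.81 to 31.5 CPM in IDA mice, a log2 fold change of 1.02 (adjusted p = 0.0349) with an IDA mean of 6.68 ± 8.81 CPM, and did not pass with the correction (0.73, adjusted p = 0.135). Its SD in IDA mice exceeded its mean, so the highest value, 31.5 CPM, weighs heavily on this fold change. *Trp53inp1* (49.4 ± 8.56 to 27.3 ± 6.14 CPM, -0.85), *Eda2r* (-0.83) and *Polk* (-0.60) fell. With the length correction they were at -0.52, -0.47 and -0.39, against -0.66 for *Rrm2b*. *Ddb2*, a DNA damage binding protein named after its values were seen, fell without a correction (-0.55, adjusted p = 0.000941) and was below *Rrm2b* with the length correction (-0.68) and with length and GC (-0.55). Conversely, with length and GC *Eda2r* (-0.27, adjusted p = 0.0769), *Polk* (-0.20, adjusted p = 0.0775) and *Plk3* (0.29, adjusted p = 0.155) did not pass. Of the well-known targets, *Mdm2* was at -0.22 (adjusted p = 0.000593, and -0.16 with the length correction) and *Cdkn1a* at 0.31 (adjusted p = 0.0503). *Mdm2* did not pass with length and GC (-0.06, adjusted p = 0.188). *Bax* was at 0.42 (adjusted p = 6.97e-06) without a correction, at 0.10 (adjusted p = 0.0796) with the length correction and at -0.21 (adjusted p = 0.000862) with length and GC. These last 3 genes were chosen for their role.

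Markers of other cells in the tissue differed between the diets. Of 11 tested erythroid markers (of 25 listed, 4 of them listed at 0 counts), 9 rose and 1 fell (against 35.0% and 32.5% of tested genes), with a median log2 fold change of 0.80, and 7 were higher and none lower after the length correction. Their summed level covered 470 to 572 CPM in control mice and 536 to 1329 CPM in IDA mice. Without the expression filter 15 of the listed erythroid markers were called higher. *Trim10* (0.87 ± 0.40 to 16.4 ± 16.4 CPM, 4.21) and *Slc4a1* (2.74 ± 0.84 to 45.2 ± 41.9 CPM, 4.04) were among those with the largest log2 fold changes. The IDA mice alone (at least 1.32 CPM) carried *Trim10* through the filter of 1 CPM. Its control range of 0.37 to 1.44 CPM lies near the floor, so the size of its fold change is uncertain. Of 20 tested leukocyte markers, 13 rose and 2 fell (median 0.40, summed level 643 to 755 and 691 to 915 CPM), with 10 higher and none lower after the length correction, 5 and 1 after length and GC, and 6 and 2 with the erythroid covariate. *S100a9* was at 2.35, *S100a8* at 2.12 and *Cd79a* at 1.12 (2.01, 1.76 and 0.90 with the correction). *Ptprc* (-0.49) and *Itgam* (-0.37) did not pass with the correction (-0.14, adjusted p = 0.377, and -0.11, adjusted p = 0.501). Of 12 cardiomyocyte markers, 5 rose and 2 fell (summed level 6925 to 10254 and 6146 to 8862 CPM), and 4 were higher and 6 lower after the length correction. Their counts of higher and lower were 0 and 6 with the library size covariate, 1 and 2 with the erythroid covariate, 9 and 2 in the lower-numbered libraries and 0 and 3 in the higher-numbered ones. PCR duplicates had been removed, and in 9 of the 12 markers the mean over all libraries was above 1 read pair per exonic base, while *Actc1*, for example, covered only 1.79 to 1.85 over the 20 libraries, so no direction is read from this list. The very long *Ttn* (-0.79) and *Ryr2* (-0.51), with means of 0.18 and 0.67 read pairs per exonic base, turned higher with the length correction (0.57 and 0.28). Of 10 endothelial markers 5 rose and 4 fell, with 5 higher and 1 lower after the correction, and of 10 fibroblast markers 2 rose and 2 fell, with 3 and 3. The cardiomyocyte markers *Myh6*, *Actc1* and *Tnnt2* had means of 1366, 332 and 315 CPM in control hearts, as defining markers of the labelled tissue. The part of these cell types in the differences of *Tyms*, *Rrm2b* and the other 6 genes was not tested beyond the erythroid and mitosis covariates. The mitosis covariate changed no call among the 8 genes. With it *Rrm2* was at -0.19 (edgeR adjusted p = 0.174), *Tyms* at 0.54 (adjusted p = 0.00861) and *Rrm2b* at -0.89.

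The genes most alike in their spread between mice, once the mean of each diet was removed, were found by Pearson's r over the 20 mice, as a description. For *Rrm2b* they were *Xrn1* (0.97), *Fsd1l* (0.95) and *Osbpl8* (0.95), all long models of 5501, 9193 and 7152 exonic bases, whose log2 fold changes were -1.85, -0.64 and -0.79. For *Rrm1* they were *Pcdhb14* (0.85), *Hs3st1* (0.81) and *Dact1* (0.81). For *Rrm2* they were *Nlrc3* (0.81), *Nipsnap3b* (0.79) and *Igfbp3* (0.77). Between *Rrm1* and *Rrm2b* themselves r was -0.08, and between *Rrm1* and *Rrm2* it was -0.09. Both library depth and the length slope differ between mice, and their part in these likenesses was not tested.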

How the data were processed

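Hearts of 20 mice were measured by RNA-seq. Per the labels and the study's methods, reads were aligned by STAR against mm10, PCR duplicates were taken out (samtools), and featureCounts 1.4.5-p1 tallied exonic read pairs by gene name without strand. The authors deposited the resulting raw counts, with exonic lengths. Removing duplicates lowers the counts of highly expressed genes, and the 8 genes reached at most 0.201 read pairs per exonic base. The labels give the iron of the deficient diet as below 2 ppm in one place and above it in another. The study's methods give a range that starts at 2 ppm, and an iron-adjusted diet for the control mice. A mouse of each group was left out in the study without being named, so all 20 were kept.

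The filter of 1 CPM in 10 or more mice left 13590 genes and removed 9830. Tests were run in R 4.3.3 with edgeR 4.0.16 (TMM, quasi-likelihood test) and DESeq2 1.42.0 (Wald test). The standard errors given and drawn were derived from the edgeR log2 fold change and its F statistic, not estimated separately. The 95% intervals applied a t quantile with 18 degrees of freedom to them, and are approximate. The gene length correction subtracted each mouse's loess curve (span 0.5, degree 1) on log2 exonic length, and the GC step used annotated transcripts (99.2% of tested genes). Log2 CPM used a prior count of 2, and ratios an added count of 0.5. Permutation tests (100000 resamples, two-sided) were run in Python with SciPy. The fits were tested on simulated data.

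The 8 genes and the lists were chosen with earlier results of these data known, and 240 of 244 listed symbols were found. Named genes are the 8, up to 3 higher and 3 lower called genes of each list with the largest log2 fold change, and the 3 most alike to *Rrm1*, *Rrm2* and *Rrm2b*. Genes named for their role are exceptions, and a few genes under the rule are not reported. The p-values of the diet tests set each difference against the spread between these mice. Unless a correction or covariate is named, they take no account of the length slope, which also separates the diets. The deposited column names hold library numbers in a lower run (5 control and 7 IDA mice) and a higher run (5 control and 3 IDA mice), whose meaning is not given in the sources used here.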

Additional observations from a re-analysis of the deposited data

Results flagged for a closer look

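Each of the 8 genes and 4 ratios was checked in each diet for a mouse far from the others of its group (Dixon's test at the 95% level, 24 groups of 10, where chance gives about 1 in 20). In 3 groups a mouse stood apart, each time IDA mouse 4. Its *Rrm2* was 15.9 CPM, with the next IDA mouse at 9.37 CPM. Its *Rrm2* to *Rrm1* ratio per exonic base was 0.597, with the next at 0.319, and its *Rrm2* to *Rrm2b* ratio was 0.676, with the next at 0.361. The 3 values share the *Rrm2* counts of 1 library. The same mouse had the highest mitosis mean of the IDA group (2.92 on the log2 CPM scale), and the part of that in its *Rrm2* was not tested.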

How the results depend on the processing

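*Rrm2b* stayed lower and called under every planned setting, from -0.96 to -0.87 with 1 mouse left out and at most -0.84 over 100 pairs of 1 mouse left out of each diet. Settings chosen after the data were seen were the library number term, fits within the lower- or higher-numbered libraries, and the length slope as a covariate. The slope covariate ended every call, with log2 fold changes of -0.12 for *Rrm2b*, -0.0375 for *Rrm1*, -0.16 for *Tk1*, -0.16 for *Tk2*, 0.47 for *Tyms*, -0.18 for *Dck* and 0.0139 for *Dut*, and left 4 genes higher and 1 lower among all tested, and 0 and 0 of the wider dNTP list. The cause was not tested.

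*Rrm1* (-0.12) lost its call with upper quartile scaling (-0.0965, adjusted p = 0.0844), a library size covariate (-0.0537), the erythroid covariate (-0.16, adjusted p = 0.0873) and higher-numbered libraries only (-0.0506). It turned with the length correction alone (0.0608), with the replicate block added (0.0615) or the library number term (0.0579) and with length and GC (0.22). It was called in 90 of 100 pairs left out (-0.15 to -0.0944). *Rrm2*, never called, turned with upper quartile scaling (0.0161), library size (0.15), and length and GC (0.000804), and ranged from -0.195 to 0.047 with 1 mouse left out and from -0.22 to 0.0745 over pairs. *Tk1*, never called, turned with the length correction (-0.16), that with the replicate block (-0.14) or the library number term (-0.20), length and GC (-0.22) and lower-numbered libraries only (-0.19), with pairs from -0.0143 to 0.16. With higher-numbered libraries only, *Tk1* was at 0.40 (adjusted p = 0.0548). *Tyms* lost its call with the erythroid covariate (0.49, adjusted p = 0.23) and lower-numbered libraries only (0.49, adjusted p = 0.167). With higher-numbered libraries only, *Tk2* (0.35, adjusted p = 0.0519) and *Dck* (-0.40, adjusted p = 0.17) lost theirs, in fits of 8 mice.

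Genes called higher numbered 2635 with higher-numbered libraries only, and genes called lower 2712 with length and GC. The wider dNTP list had 10 higher with the length correction and block, 10 with length and GC and 9 with higher-numbered libraries only. The length correction gave -0.24 for *Rrm2* to *Rrm1* and -0.45 for *Tk1* to *Tk2*. Without a correction and with 1 mouse left out, these ratio differences ranged from -0.0927 to 0.12 and from -0.33 to -0.21. Of 374 counts over other lists and settings, 268 stayed within 1.5 times and 106 did not.

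The labels do not pair mice by replicate number. Mice of the same number did not regularly deviate together (correlations of their deviations from -0.28 to 0.26, with 3 of 10 controls closest to their own number), although same-numbered mice often lie in the same run of library numbers. The replicate block changed no call among the 8 genes (*Rrm2b* -0.91, *Rrm1* -0.12, *Tyms* 0.64) and gave 4584 higher and 4328 lower genes. Depth limits *Tyms*, *Tk1* and *Rrm2*, with means of 31.9, 49.0 and 61.6 read pairs per control mouse.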
